A study of Mus musculus with 4 samples.

Results

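The IGF and insulin signalling genes described here are 10 genes: the ligand gene Igf1, the receptor genes Igf1r and Insr, the adaptor genes Irs1 and Irs2, and the binding protein genes Igfbp3, Igfbp4, Igfbp5, Igfbp6 and Igfbp7. They were taken by symbol from a deposited table of 23352 gene symbols, in which each had a single row. RNA was taken at postnatal day 21 from the ventricles of C57BL/6 males. Of the 4 libraries, 2 were from mice with cardiac-specific overexpression of Cdk8 (Cdk8Tg) and 2 from wild-type mice (WT). Which promoter drove the transgene was not stated in the labels. They also do not say that each library is a separate animal, and the p-values below therefore reflect library-to-library spread, which may be technical. Values are FPKM, fragments scaled to transcript length and library size, which allows levels of different genes to be set side by side.

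Insulin-like growth factor 1 is a secreted growth factor made by the liver and by many tissues, the heart included. It binds the type 1 IGF receptor, a tyrosine kinase closely related to the insulin receptor, and both receptors recruit the insulin receptor substrates, which lead to PI3-kinase, AKT and the FOXO transcription factors. Binding proteins hold IGF outside the cell and set how much of it reaches the receptor. In the heart the pathway is known for physiological growth, survival and substrate use of cardiomyocytes.

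Cdk8, the overexpressed kinase, stood at 7309 and 8122 FPKM in Cdk8Tg ventricles, against 7.89 and 9.86 FPKM in WT ventricles, as the labels say. From the steps between low FPKM values the depth was about 11600000 and 11200000 fragments in the Cdk8Tg libraries and 13200000 and 13200000 in the WT libraries, if each library was scaled by its own total. Cardiomyocyte markers summed to 28066 and 26637 FPKM in Cdk8Tg against 40886 and 39657 FPKM in WT, and 6 of 8 fell. Of 8 fibroblast markers 5 rose, of 8 endothelial and 8 smooth muscle and pericyte markers 0 changed, and of 8 macrophage and leukocyte markers 5 fell. Atrial markers, summed, varied more between replicates than between groups, at 81.2 and 344 FPKM in Cdk8Tg and 275 and 25.4 FPKM in WT. In ventricular tissue, fewer cells of a type and less RNA per cell cannot be told apart.

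Igf1r, Irs1, Igfbp4 and Igfbp7 rose in the Cdk8Tg ventricles and no member fell. The other 6 members, Igf1, Insr, Irs2, Igfbp3, Igfbp5 and Igfbp6, did not pass the test. A change was called where the Benjamini-Hochberg adjusted p of limma, fitted on log2(FPKM + 1) over all 11888 rows with a mean of at least 1 FPKM, was under 0.05. All 10 members passed that filter. Among the 10 members 4 were called higher and 0 lower, while 24.9% of all rows were called, 16.9% higher in Cdk8Tg and 7.98% lower. The median log2 change of the members was 0.32 and that of all rows 0.13. The groups did not overlap for 7 of the 10 members, 5 with Cdk8Tg above WT and 2 with Cdk8Tg below, while 70.3% of all rows showed no overlap, 49.2% with Cdk8Tg above and 21.1% with Cdk8Tg below. That share of the members is therefore near the background.

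The count depended on how the libraries were scaled. Scaling by the median of ratios, which brought the median log2 change of all rows to 0.00, left Igf1r as the single call among the members, with 19.6% of all rows called, 7.96% higher and 11.7% lower. Quantile normalization left Igf1r and Igfbp7, with 17.1% of all rows called, 8.34% higher and 8.74% lower. Bringing all libraries to an equal FPKM sum called 5 members higher, Igf1 among them, with 46.7% of all rows called, 41.2% higher and 5.49% lower, and a median log2 change of all rows of 0.30. Igf1r, as higher, and Irs2, as lower, were the 2 members with a q under 0.05 in the authors' deposited table, where 14.0% of the genes tested passed, 5.53% higher and 8.43% lower. Without WT replicate 2 no member was called by limma, and 2.41% of all rows were. Without WT replicate 1 the only call among the members was Irs2, as lower, and 5.28% of all rows were called. At an unadjusted p under 0.05, with all 4 libraries, limma gave 5 members, against 41.6% of all rows, so that this count is near the background.

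**Figure D1:**
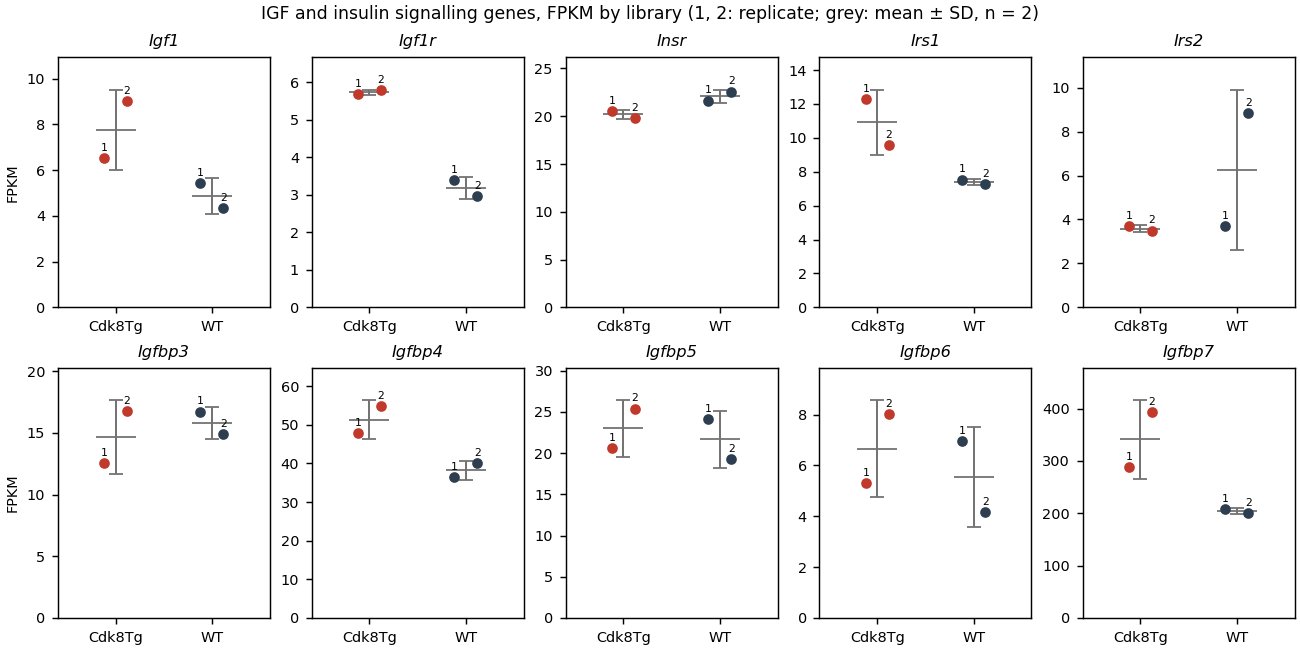
FPKM of the 10 IGF and insulin signalling genes in each library, with an axis from 0 for each gene. Red points are the Cdk8Tg libraries and dark points the WT libraries, numbered by replicate, and grey bars give the mean ± SD (n = 2). Igf1r, Irs1, Igfbp4, Igfbp7 and Igf1 lie higher in both Cdk8Tg libraries than in either WT library, and Irs2 is high in WT replicate 2 alone, at 8.84 FPKM.

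Promoters are shown for Igf1r, Irs1, Igfbp4 and Igfbp7, which rose, and for Irs2, the adaptor gene that did not move with Irs1. RefSeq starts on GRCm38.p6 were found for 9 of the 10 members, Insr being the other. Each window runs from 250 bases before to 50 bases after the RefSeq start, 5′ to 3′ on the gene's strand. For Igf1r and Irs2 the window lies wholly outside the GENCODE gene span. The Igf1r window ends at 67952306 and the span begins at 67952827. On the minus strand, the Irs2 window reaches down to 11008880 and the span ends at 11008458. Windows at the GENCODE starts of these genes were not searched. Capitals mark matches, on either strand, to the letters GTAAACA (FOXO), CACGTG (E-box), TGACGTCA (CRE), TGACTCA (AP-1), CCAAT, and GGGCGG (Sp factors).
Igf1r, chr7:67952007-67952306, plus strand: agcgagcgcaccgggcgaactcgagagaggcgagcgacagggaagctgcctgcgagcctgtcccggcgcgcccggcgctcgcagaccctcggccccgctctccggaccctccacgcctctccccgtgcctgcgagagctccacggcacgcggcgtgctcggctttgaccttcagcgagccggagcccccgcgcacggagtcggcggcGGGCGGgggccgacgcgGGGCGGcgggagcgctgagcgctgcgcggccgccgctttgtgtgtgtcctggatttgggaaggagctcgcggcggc
Irs1, chr1:82291390-82291689, minus strand: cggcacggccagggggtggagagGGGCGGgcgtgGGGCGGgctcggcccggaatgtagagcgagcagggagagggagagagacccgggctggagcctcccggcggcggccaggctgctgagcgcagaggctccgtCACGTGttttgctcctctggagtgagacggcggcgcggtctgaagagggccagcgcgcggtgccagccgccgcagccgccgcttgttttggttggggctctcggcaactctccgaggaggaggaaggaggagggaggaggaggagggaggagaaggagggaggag
Irs2, chr8:11008880-11009179, minus strand: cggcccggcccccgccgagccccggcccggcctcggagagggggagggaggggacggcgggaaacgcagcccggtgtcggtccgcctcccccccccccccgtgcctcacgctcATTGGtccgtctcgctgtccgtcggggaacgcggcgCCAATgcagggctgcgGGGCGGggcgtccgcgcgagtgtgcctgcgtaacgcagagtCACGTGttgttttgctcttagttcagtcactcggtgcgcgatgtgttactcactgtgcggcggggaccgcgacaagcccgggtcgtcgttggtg
Igfbp4, chr11:99040994-99041293, plus strand: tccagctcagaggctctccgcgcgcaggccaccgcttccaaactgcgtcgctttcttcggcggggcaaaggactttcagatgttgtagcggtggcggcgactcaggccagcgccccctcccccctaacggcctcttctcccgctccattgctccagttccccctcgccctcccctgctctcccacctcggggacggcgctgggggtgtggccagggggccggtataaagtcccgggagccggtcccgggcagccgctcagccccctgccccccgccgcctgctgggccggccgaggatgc
Igfbp7, chr5:77407996-77408295, minus strand: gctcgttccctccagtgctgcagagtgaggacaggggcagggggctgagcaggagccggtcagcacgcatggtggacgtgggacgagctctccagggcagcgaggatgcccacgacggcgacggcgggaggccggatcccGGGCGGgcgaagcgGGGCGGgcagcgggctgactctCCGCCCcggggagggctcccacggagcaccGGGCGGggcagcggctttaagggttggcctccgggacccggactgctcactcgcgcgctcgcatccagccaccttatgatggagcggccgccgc

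GGGCGG or its complement occurred 2 times in the Igf1r window, 2 times in that of Irs1, 1 time in that of Irs2 and 4 times in that of Igfbp7, and 35.7% of all 32851 promoter windows of this length hold it. The Igfbp4 window held no match to any of the motifs. CACGTG occurred 1 time each in Irs1 and Irs2, against 7.15% of all windows, although these genes differed in their values. CCAAT or its complement occurred 2 times in Irs2, against 37.4% of windows. No match to the FOXO, CRE or AP-1 letters was found in these windows, and matches did not overlap each other. The 5 windows were rich in G and C, at 76% for Igf1r, 71.3% each for Irs1 and Igfbp4, 72% for Irs2 and 73.3% for Igfbp7, where the median window has 52.7%. Such matches are letters only and say nothing of binding.

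The ligand gene Igf1 lies on chromosome 10 at 87858265 to 87937042 on the plus strand of GRCm38. It stood at 6.54 and 9.01 FPKM in Cdk8Tg ventricles, against 5.42 and 4.33 FPKM in WT ventricles. The groups did not overlap, but the Cdk8Tg replicates lay further apart than the gap between the groups. Its log2 change was 0.57 ± 0.17 (SE), with a limma Benjamini-Hochberg adjusted p of 0.064, which was not called. It was called without Cdk8Tg replicate 1 (limma adjusted p = 0.036) and with equal FPKM sums (limma adjusted p = 0.023). The authors' deposited table gives a q of 0.0501 for Igf1. Igf2, the fetal growth factor of the same family, was more abundant, at 35.9 and 20.2 FPKM in Cdk8Tg and 34.9 and 28.7 FPKM in WT, with a log2 change of -0.22 ± 0.27 that was not called (limma adjusted p = 0.55). The log2 change of Igf2 was -0.62 without Cdk8Tg replicate 1 and 0.18 without Cdk8Tg replicate 2. The FPKM ratio of Igf2 to Igf1 was 5.49 and 2.24 in Cdk8Tg and 6.44 and 6.64 in WT. The insulin genes Ins1 and Ins2 were listed at 0 in all 4 libraries.

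Igf1r, the tyrosine kinase receptor for IGF, was the member with the smallest p. It lies on chromosome 7 at 67952827 to 68233668 on the plus strand. Its level was 5.68 and 5.78 FPKM in Cdk8Tg ventricles, against 3.39 and 2.97 FPKM in WT ventricles. Both Cdk8Tg values were far above both WT values, and replicates were close. Means were 5.73 ± 0.0674 FPKM in Cdk8Tg and 3.18 ± 0.299 FPKM in WT (SD, n = 2 per group), a ratio of 1.80. On the log2 scale the difference was 0.69 ± 0.11 (SE), with a limma Benjamini-Hochberg adjusted p of 0.013, and 5.47% of all rows had a larger rise. Median-of-ratios scaling gave 0.57 (limma adjusted p = 0.020) and quantile normalization 0.54 (limma adjusted p = 0.025), both calls. The call was lost without WT replicate 1 (limma log2 change 0.76, adjusted p = 0.054), without WT replicate 2 (0.62, adjusted p = 0.087) and when rows of low level were kept in (adjusted p = 0.051). The authors' deposited table puts Igf1r at 6.52 FPKM in Cdk8Tg and 4.04 FPKM in WT, with a q of 0.0016.

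Insr, the insulin receptor gene, was the more abundant receptor of the pair and did not pass the test. It lies on chromosome 8 at 3122061 to 3279617 on the minus strand. Insr stood at 20.5 and 19.8 FPKM in Cdk8Tg ventricles, against 21.6 and 22.6 FPKM in WT ventricles. Both Cdk8Tg values were below both WT values by a small margin. The estimate on the log2 scale was -0.12 ± 0.080 (SE), with a limma Benjamini-Hochberg adjusted p of 0.29, and it was 0.06 on the equal-sum scale, so its direction rested on scaling. Within each library, where scaling cancels, the FPKM ratio of Insr to Igf1r was 3.62 and 3.43 in Cdk8Tg and 6.38 and 7.61 in WT. Igf1r made up 21.7% and 22.6% of the FPKM of both receptor genes in Cdk8Tg, against 13.6% and 11.6% in WT. On the deposited scale their sum was nearly level, at 26.2 and 25.6 FPKM in Cdk8Tg and 25.0 and 25.5 FPKM in WT. Unlike the ratio and the shares, the sum depends on scaling. These ratios were chosen with the values known and carry no test. Igf2r, which clears IGF2 rather than signalling, stood at 31.7 and 28.9 FPKM in Cdk8Tg and 28.9 and 28.3 FPKM in WT (log2 change 0.08 ± 0.086, limma adjusted p = 0.52), and its sign flipped to -0.07 with median-of-ratios scaling.

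**Figure D2:**
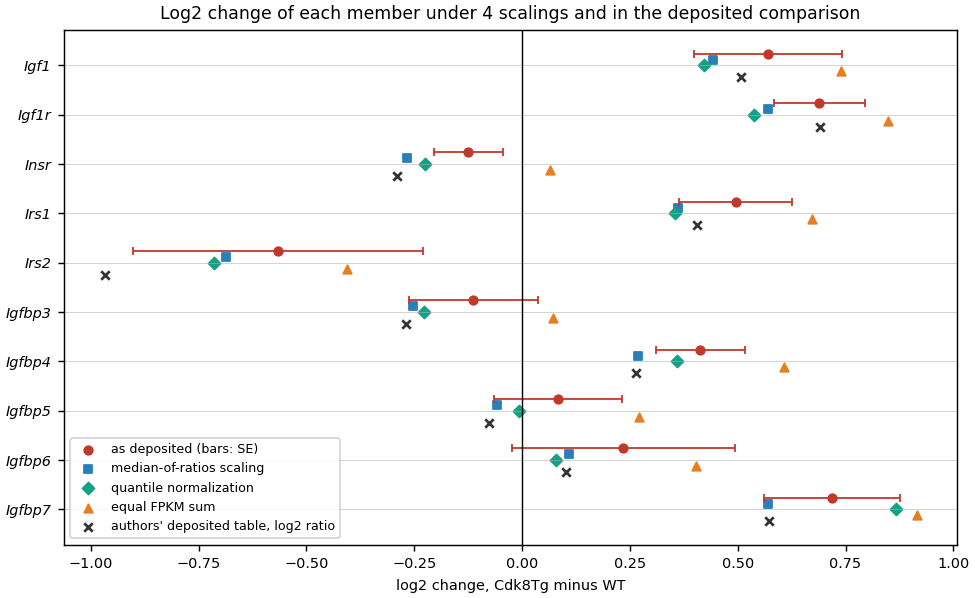
Log2 change, Cdk8Tg minus WT, of each member on the deposited scale with its SE, under 3 other scalings, and as the log2 ratio of group FPKM in the authors' deposited table. Igf1r lies between 0.54 and 0.85 in all 5 sets, whereas Insr, Igfbp3 and Igfbp5 fall on both sides of 0.

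Irs1 and Irs2 encode the docking proteins that carry the signal of both receptors to PI3-kinase, and their values went apart. Irs1, on chromosome 1 at 82233101 to 82291416 (minus strand), stood at 12.3 and 9.56 FPKM in Cdk8Tg ventricles, against 7.53 and 7.27 FPKM in WT ventricles. Both Cdk8Tg libraries were higher, replicate 1 more so. This was a log2 change of 0.50 ± 0.13 (SE), with a limma Benjamini-Hochberg adjusted p of 0.046, a call close to the threshold. Leaving out Cdk8Tg replicate 1 (limma log2 change 0.33, adjusted p = 0.11), WT replicate 1 (0.52, adjusted p = 0.14) or WT replicate 2 (0.47, adjusted p = 0.19) ended it, as did median-of-ratios scaling (0.36, adjusted p = 0.12). The q of Irs1 in the authors' deposited table was 0.124. Of the exon bases of Irs1, 30.9% are overlapped by exons of Gm9747 on the opposite strand, and the strand setting of the authors' counting is not given, so this value is uncertain.

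Irs2, on chromosome 8 at 10984681 to 11008458 (minus strand), stood at 3.69 and 3.49 FPKM in Cdk8Tg ventricles, against 3.69 FPKM in WT replicate 1 and 8.84 FPKM in WT replicate 2. A single library, WT replicate 2, stood apart, and the other 3 were nearly level, with WT replicate 1 above Cdk8Tg replicate 1 by less than the printed digits show. Its log2 change was -0.57 ± 0.34 (SE), with a limma Benjamini-Hochberg adjusted p of 0.25. Without WT replicate 2 it was -0.03 (limma adjusted p = 0.90), and without WT replicate 1 it was -1.10 (limma adjusted p = 0.033). The authors' deposited table lists Irs2 at 4.09 FPKM in Cdk8Tg and 8 FPKM in WT with a q of 8.6e-04. In the values per library, only WT replicate 2 lay clear of the Cdk8Tg libraries. Of all rows, 0.253% had a larger ratio of WT replicate 2 to WT replicate 1 than the 2.39 of Irs2. The ratio of Irs1 to Irs2 was 3.33 and 2.74 in Cdk8Tg and 2.04 and 0.823 in WT.

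Igfbp7, a secreted protein of vessels and stroma that binds IGF weakly and insulin too, was the most abundant member and had the largest rise of the 10 on the log2(FPKM + 1) scale, although the ratio of group means was 1.67, below that of Igf1r. It lies on chromosome 5 at 77349240 to 77408041 on the minus strand. Its level was 288 and 394 FPKM in Cdk8Tg ventricles, against 209 and 200 FPKM in WT ventricles. Both Cdk8Tg libraries were above both WT libraries, and Cdk8Tg replicate 2 was the highest. Means were 341 ± 74.8 FPKM in Cdk8Tg and 205 ± 5.89 FPKM in WT (SD, n = 2 per group). On the log2 scale the difference was 0.72 ± 0.16 (SE), with a limma Benjamini-Hochberg adjusted p of 0.030. With median-of-ratios scaling it narrowly missed the threshold (0.57, limma adjusted p = 0.051), as it did in the authors' deposited table (q of 0.0582). Without WT replicate 1 and without WT replicate 2 the call was lost (limma adjusted p = 0.12 and 0.15), with log2 changes of 0.75 and 0.69. Exons of Polr2b on the opposite strand overlap 7.03% of the exon bases of Igfbp7.

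Igfbp4, the binding protein known mainly for restraining IGF until the protease PAPP-A cleaves it, also rose. It lies on chromosome 11 at 99041244 to 99054392 on the plus strand. Igfbp4 stood at 47.7 and 54.8 FPKM in Cdk8Tg ventricles, against 36.5 and 39.97 FPKM in WT ventricles. The groups did not overlap, but the Cdk8Tg replicates lay nearly as far apart as the gap between the groups. The estimate on the log2 scale was 0.41 ± 0.10 (SE), with a limma Benjamini-Hochberg adjusted p of 0.040. The call was lost after median-of-ratios scaling (0.27, limma adjusted p = 0.12), and without Cdk8Tg replicate 2 (0.32, adjusted p = 0.12), WT replicate 1 (0.35, adjusted p = 0.17) or WT replicate 2 (0.48, adjusted p = 0.12). The q of Igfbp4 in the authors' deposited table was 0.385, with a log2 change of 0.26. Pappa and its relative Pappa2 were at 0.15 FPKM or less in every library.

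The other binding protein genes showed overlapping groups. Igfbp3, the main carrier of IGF in blood, on chromosome 11 at 7206086 to 7213923, stood at 12.6 and 16.8 FPKM in Cdk8Tg, against 16.7 and 14.9 FPKM in WT (log2 change -0.11 ± 0.15, limma adjusted p = 0.59). Igfbp5, a matrix-bound form on chromosome 1 at 72857932 to 72874884, stood at 20.6 and 25.4 FPKM in Cdk8Tg, against 24.1 and 19.2 FPKM in WT (0.08 ± 0.15, limma adjusted p = 0.70). Igfbp6, which prefers IGF2 and lies on chromosome 15 at 102144362 to 102149511, stood at 5.32 and 8.004 FPKM in Cdk8Tg, against 6.95 and 4.17 FPKM in WT (0.23 ± 0.26, limma adjusted p = 0.52). The values of Igfbp6 would rest on about 68.4 and 99.6 fragments in Cdk8Tg and 102 and 61.4 in WT if its full transcript was counted, the fewest of the members. For Igfbp3 and Igfbp5 the sign changed with scaling. All 3 genes were higher in replicate 2 than in replicate 1 within Cdk8Tg and lower in replicate 2 within WT. Of the binding proteins outside the 10 members, Igfbp1 was listed at 0 in all libraries and Igfbp2 was at 0.114 FPKM or less.

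The 5 binding protein genes together summed to 374 and 499 FPKM in Cdk8Tg and to 293 and 279 FPKM in WT. Igfbp7 made up 77.0% and 79.0% of that sum in Cdk8Tg, against 71.2% and 71.9% in WT. Igfbp3 made up 3.35% and 3.36% in Cdk8Tg, against 5.71% and 5.35% in WT. The sum of the binding protein genes over Igf1 was 57.3 and 55.4 in Cdk8Tg and 54.0 and 64.4 in WT, so that the group ranges overlapped. Neither set of shares was tested.

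Fibroblast markers were higher in the Cdk8Tg libraries, as Igf1, Igfbp4 and Igfbp7 were. The 8 fibroblast markers summed to 1114 and 1396 FPKM in Cdk8Tg and 946 and 875 FPKM in WT, the same order of libraries as for Igf1 and Igfbp7, and all 8 were detected. Set against that sum, Igfbp7 was at 25.9% and 28.2% in Cdk8Tg and 22.1% and 22.9% in WT. Igf1 was at 0.587% and 0.645% of the same sum in Cdk8Tg, against 0.573% and 0.495% in WT. Igfbp4 was at 4.29% and 3.93% in Cdk8Tg and at 3.86% and 4.57% in WT, with overlapping groups. Endothelial markers, a further known source of Igfbp7, summed to 279 and 268 FPKM in Cdk8Tg and 305 and 301 FPKM in WT. The macrophage and leukocyte markers summed to 89.8 and 115 FPKM in Cdk8Tg and 152 and 155 FPKM in WT. The part of these cell types in the results was not tested.

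**Figure D3:**
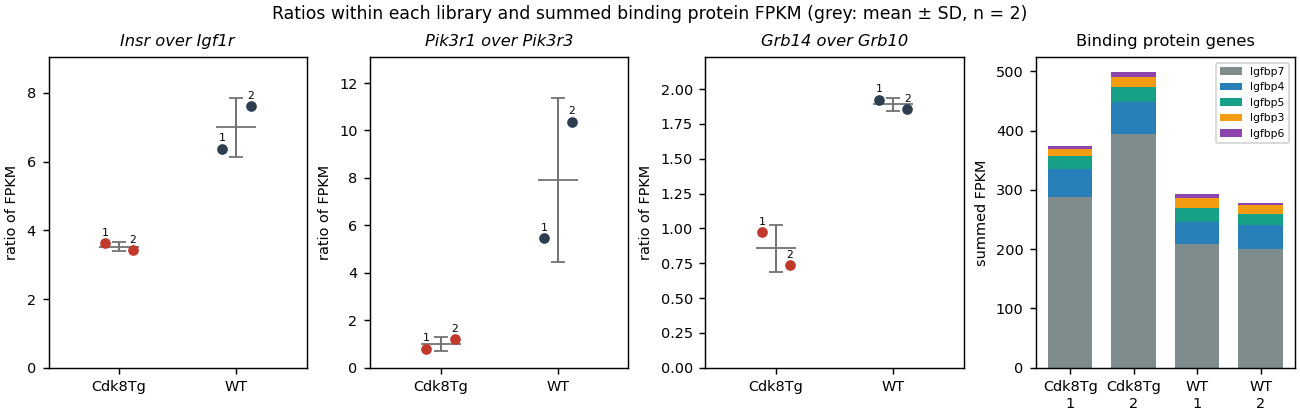
FPKM ratios within each library for Insr over Igf1r, Pik3r1 over Pik3r3 and Grb14 over Grb10 (points: libraries numbered by replicate; grey: mean ± SD, n = 2), and stacked FPKM of the 5 binding protein genes per library. Each of the 3 ratios is lower in both Cdk8Tg libraries, and the stacks reach 374 and 499 FPKM in Cdk8Tg against 293 and 279 FPKM in WT, mostly from Igfbp7.

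Among the 10 members the order of levels was similar in both groups. Igfbp7 came highest in all 4 libraries and Igfbp4 next, each clear of the gene after it. Igfbp5 and Insr followed. In WT the values of Insr lay within the range of Igfbp5, and in Cdk8Tg they lay just below it. Igfbp3 came next and stood above Irs1 in every library, by a narrow margin in Cdk8Tg replicate 1. Igf1 and Igfbp6 overlapped in both groups, and Igf1r fell within the range of Igfbp6 in Cdk8Tg. In WT the range of Irs2 spanned Irs1, Igf1 and Igfbp6. The lowest member was Irs2 in both Cdk8Tg libraries, and Igf1r in both WT libraries.

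By Euclidean distance between centred log2(FPKM + 1) values over the 4 libraries, the 3 genes most like Igfbp7 among 11072 compared were Parp9, Adc and Adamts2. Parp9 stood at 9.77 and 13.8 FPKM in Cdk8Tg, against 6.87 and 6.34 FPKM in WT, at a distance of 0.033. Adamts2, an enzyme that trims procollagen, stood at 11.2 and 16.4 FPKM in Cdk8Tg, against 8.32 and 7.77 FPKM in WT. With 4 libraries such likeness is a description only.

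Beyond the members, the largest differences of the pathway were in the regulatory subunits of PI3-kinase, which link phosphorylated receptor substrates to the catalytic subunit. Pik3r3 rose and Pik3r1 fell. Pik3r3 stood at 13.9 and 11.2 FPKM in Cdk8Tg ventricles, against 4.48 and 3.77 FPKM in WT ventricles, with both Cdk8Tg values far above WT. This was a log2 change of 1.39 ± 0.14 (SE), with a limma Benjamini-Hochberg adjusted p of 0.0056, and it was called under all 15 alternatives, including each scaling and the loss of any library. Of its exon bases, 24.3% are shared with Gm49337 on the same strand. Pik3r1 stood at 11.2 and 13.6 FPKM in Cdk8Tg ventricles, against 24.6 and 39.1 FPKM in WT ventricles, with both Cdk8Tg values below WT and WT replicate 2 the highest. Its log2 change was -1.26 ± 0.22 (limma adjusted p = 0.018), and the call was lost without WT replicate 2 (-0.93, limma adjusted p = 0.062) and with no filter (limma adjusted p = 0.070).

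In the authors' deposited table both Pik3r3 and Pik3r1 had a q of 8.6e-04. Pik3r2 stood at 8.99 and 8.77 FPKM in Cdk8Tg, against 9.48 and 8.89 FPKM in WT. Of the summed FPKM of these 3 genes, Pik3r3 made up 40.7% and 33.2% in Cdk8Tg, against 11.6% and 7.28% in WT. Pik3r1 made up 32.9% and 40.6% in Cdk8Tg, against 63.8% and 75.5% in WT. The shares were worked out after the values were seen and carry no test.

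The list of other pathway genes held 85 genes, of which 74 passed the filter on low values. Of these, 10 rose and 5 fell on the deposited scale, against 16.9% and 7.98% of all rows, and the median log2 change was 0.08 beside 0.13 for all rows. After median-of-ratios scaling 3 rose and 10 fell, with a median of -0.05, against 7.96% and 11.7% of all rows. The balance of directions thus depended on scaling, for these genes as for all rows. On the deposited scale the counts of 10 and 5 lie near the background. At the adaptors and receptor inhibitors, 2 of 10 rose and 1 fell. Grb10, which binds and restrains both receptors, stood at 52.7 and 61.1 FPKM in Cdk8Tg, against 36.7 and 39.6 FPKM in WT (log2 change 0.56 ± 0.10, limma adjusted p = 0.020). Grb14, its relative with the same action on the insulin receptor, stood at 51.3 and 45.2 FPKM in Cdk8Tg, against 70.6 and 73.5 FPKM in WT (-0.57 ± 0.093, limma adjusted p = 0.015). The FPKM ratio of Grb14 to Grb10 was 0.973 and 0.739 in Cdk8Tg and 1.92 and 1.85 in WT. In the authors' deposited table the q was 0.116 for Grb10, 8.6e-04 for Grb14 and 0.515 for Grb2. Grb2, which leads to RAS, rose by 0.36, a call lost after median-of-ratios scaling and on leaving out any of the 4 libraries (limma adjusted p between 0.061 and 0.14). Grb10 was no longer called without Cdk8Tg replicate 2, WT replicate 1 or WT replicate 2 (limma adjusted p = 0.058, 0.10 and 0.093), nor Grb14 without WT replicate 1 or WT replicate 2 (limma adjusted p = 0.075 and 0.10).

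**Figure D4:**
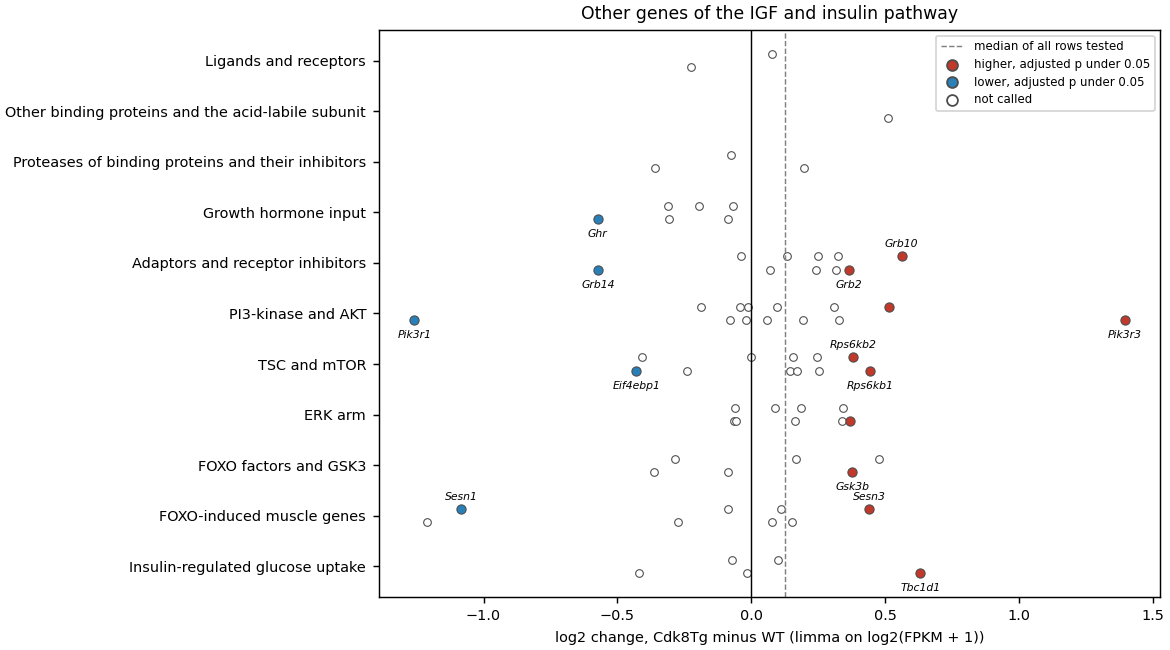
Log2 change, Cdk8Tg minus WT, of the 74 other pathway genes that passed the filter, by subgroup. Filled points passed limma's adjusted p of 0.05 (red higher, blue lower in Cdk8Tg), and the dashed line is the median of all rows, 0.13. Pik3r3 at 1.39 and Pik3r1 at -1.26 lie furthest apart among the called genes.

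Of 6 genes of growth hormone input, which drives Igf1 in liver, 1 fell and 0 rose. Ghr, the growth hormone receptor, stood at 51.5 and 44.2 FPKM in Cdk8Tg, against 67.3 and 76.1 FPKM in WT (log2 change -0.57 ± 0.11, limma adjusted p = 0.023). Along the chain from PI3-kinase, 2 of 13 genes rose and 1 fell, Pik3r3 and Pik3r1 among them. The AKT kinase genes Akt1 and Akt2 were at -0.19 and -0.02 with no call. In TSC and mTOR signalling 2 of 11 rose, the S6 kinase genes Rps6kb1 and Rps6kb2 at 0.44 and 0.38, and 1 fell, the translation repressor gene Eif4ebp1 at -0.43 (limma adjusted p = 0.025, 0.035 and 0.038). Gsk3b, a kinase that AKT inhibits, was the single call of 6 FOXO and GSK3 genes, at 0.38 (limma adjusted p = 0.032). The calls of Rps6kb1, Rps6kb2 and Gsk3b were lost after median-of-ratios scaling and after quantile normalization. That of Eif4ebp1 held after median-of-ratios scaling (limma adjusted p = 0.024). It was lost with quantile normalization (-0.42, limma adjusted p = 0.055) and with equal FPKM sums (-0.24, limma adjusted p = 0.11). The q in the authors' deposited table was 0.40 for Rps6kb1, 0.559 for Rps6kb2, 0.415 for Gsk3b and 0.00908 for Eif4ebp1. Ghr was no longer called without Cdk8Tg replicate 2, WT replicate 1 or WT replicate 2 (limma adjusted p = 0.066, 0.071 and 0.13). Leaving out WT replicate 1, WT replicate 2 or Cdk8Tg replicate 2 ended the calls of Rps6kb1, Rps6kb2, Eif4ebp1 and Gsk3b. Leaving out Cdk8Tg replicate 1 ended those of Rps6kb2, Eif4ebp1 and Gsk3b, and over these fits the limma adjusted p lay between 0.051 and 0.18.

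Of 5 genes of insulin-regulated glucose uptake, Tbc1d1, a Rab GTPase-activating protein that AKT phosphorylates, rose. It stood at 6.00 and 6.61 FPKM in Cdk8Tg, against 3.83 and 3.60 FPKM in WT (log2 change 0.63 ± 0.10, limma adjusted p = 0.015). The call was lost without Cdk8Tg replicate 2, WT replicate 1 or WT replicate 2 (limma adjusted p = 0.058, 0.069 and 0.094). Slc2a4, the insulin-responsive glucose transporter, stood at 129 and 102 FPKM in Cdk8Tg, against 150 and 158 FPKM in WT, with no call (-0.42 ± 0.13, limma adjusted p = 0.066). It was called lower after median-of-ratios scaling (-0.57, limma adjusted p = 0.042), and in the authors' deposited table its q was 0.0225, also as lower. No call was made among 2 ligand and receptor genes, 1 binding protein gene and 3 genes of proteases and their inhibitors that passed the filter.

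Of 8 FOXO-induced muscle genes, Sesn1 fell and Sesn3 rose. The ratio of WT replicate 2 to WT replicate 1 in these 8 genes ran between 0.861 for Bcl6 and 2.07 for Pdk4, and 3 of them, Pdk4, Fbxo32 and Sesn1, reached 1.5. Ccng2 and Cited2 were at 1.12 and 1.05, and Sesn3, at 0.870, was lower in WT replicate 2. Sesn1, a stress-induced inhibitor of mTOR signalling, stood at 40.5 and 44.3 FPKM in Cdk8Tg, against 71.7 and 115 FPKM in WT (log2 change -1.08 ± 0.22, limma adjusted p = 0.025), a call lost without WT replicate 2 (-0.75, limma adjusted p = 0.061) and without either Cdk8Tg library (limma adjusted p = 0.064 and 0.065). Sesn3, of the same family, was at 0.44, and its call was lost after median-of-ratios scaling and on leaving out any of the 4 libraries (limma adjusted p between 0.093 and 0.18). Pdk4, which shuts pyruvate out of oxidation in fasting, stood at 44.4 and 84.5 FPKM in Cdk8Tg, against 99.4 and 206 FPKM in WT, with no call (-1.21 ± 0.42, limma adjusted p = 0.090). The authors' deposited table gives Pdk4 a log2 change of -1.42 and a q of 8.6e-04, as lower. In that table Sesn1 had a q of 8.6e-04 and Sesn3 a q of 0.394. Fbxo32, the atrophy ubiquitin ligase, stood at 32.7 and 36.0 FPKM in Cdk8Tg, against 22.4 and 44.7 FPKM in WT. A ratio of WT replicate 2 to WT replicate 1 of at least 1.5 was found in 1.9% of all rows. Among the 84 members and pathway genes that passed the filter it was found in 6 (7.14%), Irs2, Pdk4, Fbxo32, Sesn1, Pik3r1 and Foxo3. These genes were singled out after their values were seen.

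**Figure D5:**
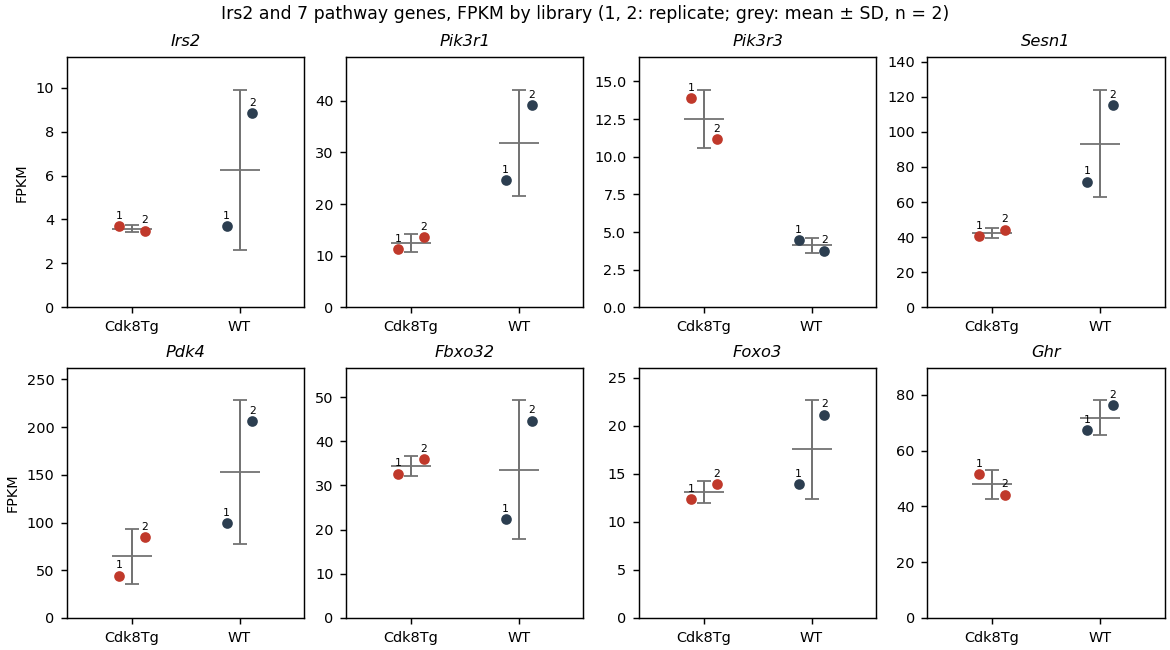
FPKM of Irs2 and 7 pathway genes in each library, numbered by replicate, with the mean ± SD in grey (n = 2) and axes from 0. For Irs2, Pik3r1, Sesn1, Pdk4, Fbxo32 and Foxo3 the highest library is WT replicate 2. Pik3r3 is higher and Ghr lower in both Cdk8Tg libraries.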

How the data were processed

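Per the labels' protocols, the authors enriched polyadenylated RNA and made stranded TruSeq libraries. Per the submitters' processing notes, they used TopHat (listed as 1.0.0), Cufflinks and Cuffdiff with the mm10 build. Not stated in those sources are the other versions, the annotation, the strand setting and how libraries were scaled. Gene-level FPKM of each library are deposited in 1 table. A second table is the authors' Cuffdiff comparison, with FPKM per group, a p-value and a q-value, per the file headers.

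FPKM are not counts, so limma 3.58.1 (R 4.3.3) with a trended empirical Bayes variance was fitted to log2(FPKM + 1) of the 11888 rows with a mean of at least 1 FPKM, over all 4 libraries, without covariates and with 2 residual degrees of freedom. Adjustment was by Benjamini-Hochberg over all rows. This scale understates changes of low genes. All log2 changes run Cdk8Tg minus WT, and each SE is limma's. Depth was estimated from FPKM under 0.1 in genes with a single transcript of over 800 bases, and such estimates cover counting error only. The test was checked on simulated data. The members and lists were chosen with earlier results of these data known. Named are all members, all called pathway genes (up to 6 per subgroup), and Igf2, Igf2r and Igfbp2. Others were named after their values were seen. Some called pathway genes are counted but not reported by name here. Alternatives were pseudocounts, filters, scalings, variance models, the replicate block, leaving out each library, and the authors' calls. Promoters came from RefSeq and gene positions from GENCODE M21, both on GRCm38, the assembly that mm10 names.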

Additional observations from a re-analysis of the deposited data

How the results depend on the processing

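Against 4 of 10 members, 15 other pathway genes and 2958 rows called in all, limma without a filter called 0 members (with the filter, 5 members and 4950 of 11888 rows had an unadjusted p under 0.05), 3 pathway genes and 1055 rows. Median-of-ratios scaling left 1 member, with 2331 of 11888 rows called. Quantile normalization left 2 members and 9 pathway genes, with 2031 of 11888 rows called. A variance without a trend left 2 members, with 2658 of 11888 rows called. The authors' q-values gave 2 members and 1730 of 12393 genes. The equal-sum scale gave 30 pathway genes and 5552 rows. Leaving out 1 library gave 0 to 4 members, 1 to 11 pathway genes and 287 to 2380 rows, with 1 residual degree of freedom and the lone library assumed to vary like the other group. With no filter more rows were tested, and the cause of the other shifts was not tested.

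Same-numbered libraries did not deviate together across all genes (correlation -0.0256). With 2 libraries per group this single correlation cannot exclude a pairing. With the replicate block 4 members, 17 pathway genes and 2825 rows were called.

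No member or pathway gene called on the deposited scale with all 4 libraries changed direction. Among genes not called there, Insr was at 0.0639 and Igfbp3 at 0.0721 on the equal-sum scale. Igfbp5 was at -0.0588 with median-of-ratios scaling, at -0.0061 with quantile normalization and at -0.0771 in the authors' deposited table. Igf2r was at -0.0661 with median-of-ratios scaling and at -0.0758 in the authors' deposited table. On the equal-sum scale Igf2r was called higher, at 0.27 (limma adjusted p = 0.046). Leaving out 1 library gave Igfbp3 -0.31 to 0.0822, Igfbp5 -0.0718 to 0.24, Igfbp6 -0.0765 to 0.55 and Igf2 -0.62 to 0.18. Igf1r and Irs2, under a mean of 5 FPKM, were not tested with that minimum. If full transcripts were counted, Igfbp6 had the fewest fragments of the members. With 2 libraries per group its SE was 0.26, below the 0.34 of Irs2. The part of depth in this spread was not tested.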
